A study of Mus musculus with 23 samples.

Results

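Cultured mouse astrocytes, glial cells that support neurons and their synapses, were compared at 24 h and at 6 h of a time course in which they received no hormone. The comparison uses the 4 libraries titled as 24 h control and the 4 titled as 6 h control, which are 8 of the 23 libraries of a study of T3, the active thyroid hormone. None of the 8 cultures received T3 or CHX, read here as the protein synthesis inhibitor cycloheximide. The pups were at postnatal day 3 and their neocortex was used, per the labels' protocols. Their background was a hybrid with 129/OLa+129/Sv+ on one side and, on the other, BALB/c+C57BL/6, and no transgene is named. They grew for 7 days in medium with 10% serum freed of thyroid hormone, were stated to be more than 95% astrocytes, and then spent 24 h in DMEM with 0.1% of that serum. The clock of the study started there, so the 6 h control had been in low serum for 30 h at harvest and the 24 h control for 48 h. The sources used here do not give the sex of the pups, nor whether the controls received a vehicle or fresh medium at that point. The labels leave out whether replicates were grown as separate cultures, and the p-values therefore describe a spread between libraries that may be technical.

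Serum carries growth factors that drive astrocytes through the cell cycle, and taking it away is a common way to quieten a culture. Handling and medium changes are in turn known to raise short-lived RNAs, among them immediate early genes and chemokines. Ependymal cells, which line the brain ventricles and carry bundles of motile cilia, arise from the same radial glial lineage as astrocytes and are a known companion of such cultures.

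The 8 libraries held 13843040 to 18430803 counts on genes. Counts of genes were tested with edgeR's quasi-likelihood F test in 1 model of all 23 libraries, and a gene is called when its Benjamini-Hochberg adjusted p over the 16087 genes tested is under 0.05. Levels are given as CPM, counts relative to TMM-scaled library sizes, which are not divided by gene length and are not compared between genes. Changes are log2 fold changes of 24 h against 6 h, with a standard error (SE). The first principal component held 66.25% of the variance of the 8 libraries and separated the times. The 24 h control replicates 2 and 4 lay apart from replicates 1 and 3 on the third component, which held 7.517%, and values without them are given beside the main lists and the named genes that depend on them. Lane was read only from the names under which the counts were deposited, which end in a lane number. Whether libraries with the same number shared a sequencing run was not examined. By these names all 6 h controls were on lane 5 and all 24 h controls on lane 6, so time and lane cannot be told apart within these libraries. The only condition with libraries on both lanes is 6 h CHX, with replicate 4 on lane 6 and replicates 1, 2 and 3 on lane 5. A fit with lane as a covariate therefore rests on that 1 library, and it takes equal numbers as the same lane.

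Of the 16087 genes tested, 9105 were called, which is 56.6%. Among them 4538 rose (28.2% of the genes tested) and 4567 fell (28.4%). The counts of list members given below are to be read against these shares. Changes of at least 2-fold were called for 1772 genes (11.0%), with 1411 higher (8.77%) and 361 lower (2.24%). In 51.1% of the genes tested the 4 libraries of one time did not overlap those of the other. With lane as a covariate 4414 genes were called (13.4% higher and 14.1% lower), and without 24 h control replicates 2 and 4 it was 7279 (22.5% higher and 22.3% lower). The direction depended on the level of the gene: the median log2 change was 0.49 over the 1822 genes below 1 CPM, 0.27 over the 3872 genes from 1 to 10 CPM, -0.06 over the 7879 genes from 10 to 100 CPM and -0.14 over the 2514 genes above. In the T3-treated cultures, which share no library with the controls, the medians over the same genes were 0.42, 0.23, -0.04 and -0.13. Genes entered the test by a filter on counts that libraries of any group could pass. The part of this filter in the values below 1 CPM was not tested. More genes had at least 1 count at 24 h (19916 to 20475) than at 6 h (19344 to 19715).

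Chemokine genes were lower at 24 h. Of 25 genes tested in a list of chemokines, cytokines and NF-kappaB feedback genes, 19 fell, 2 rose and 4 were not called, with a median log2 change of -1.10, against -0.00 over all genes tested. Chemokines recruit leukocytes, and NF-kappaB is the transcription factor that switches many of them on. The plot of list members places this list lowest of the 37 by its median.

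**Figure D1:**
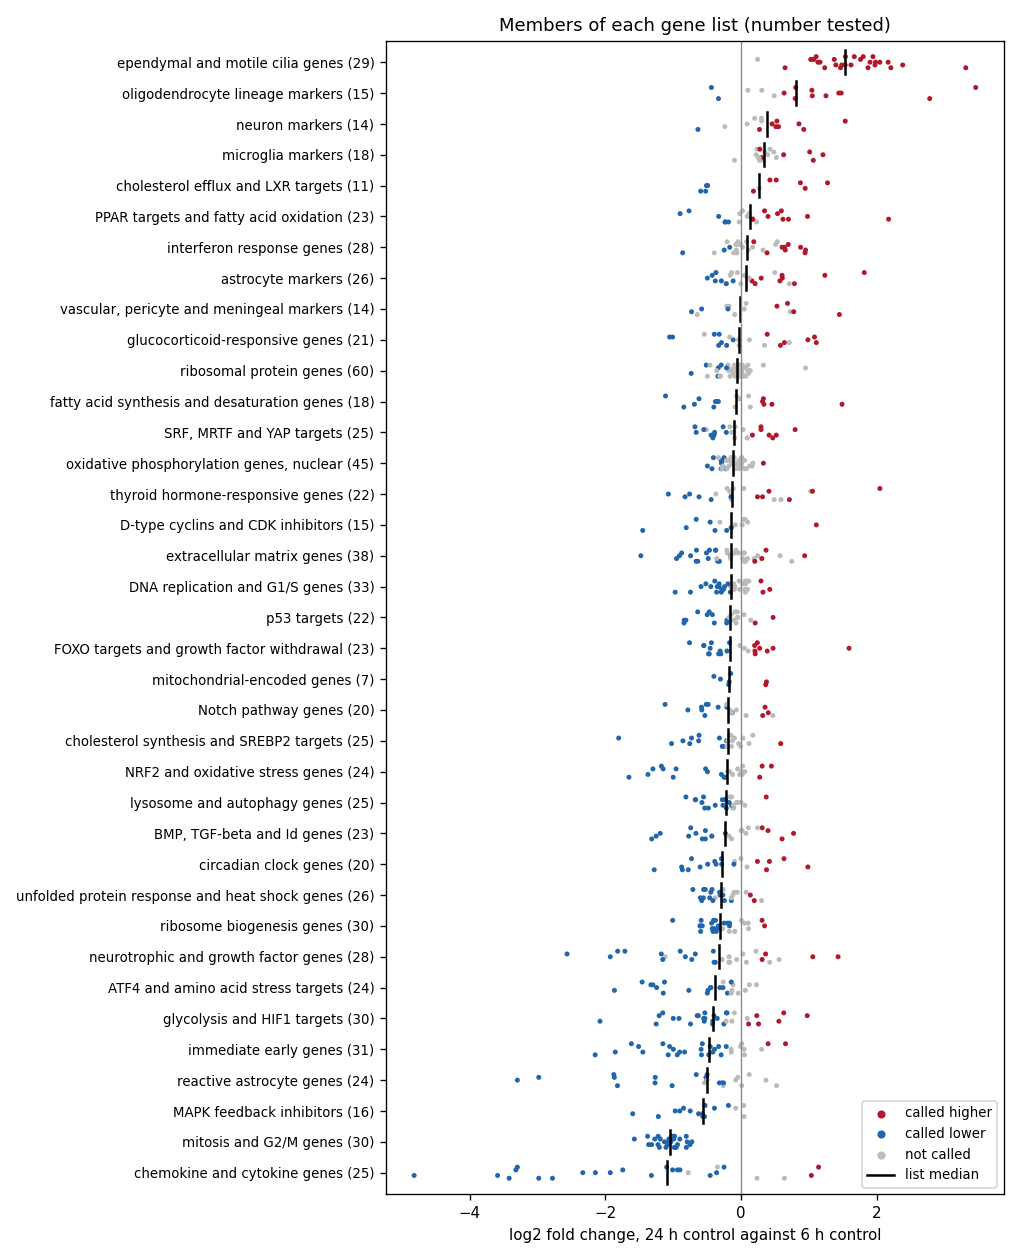
Each row is 1 of 37 gene lists with the number of members tested, and each point is the log2 fold change of 1 member, 24 h control against 6 h control; red and blue points are called higher and lower, grey points are not called, and black bars are list medians. The chemokine list (median -1.10) and the mitosis list (-1.04) sit lowest and the cilia list (1.54) highest.

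Cxcl10, an attractant of T cells, had 166, 167, 185 and 165 CPM in 6 h replicates 1 to 4, and 13.1, 18.5, 18.3 and 19.2 CPM at 24 h. Its log2 change was -3.30 ± 0.10 (SE; adjusted p = 1.9e-17), a mean of 170.9 ± 9.6 CPM against 17.3 ± 2.8 CPM (SD, n = 4). The monocyte attractant Ccl2 had 18.6, 14.0, 19.4 and 19.8 CPM at 6 h and 1.60 to 1.76 CPM at 24 h, a change of -3.42 ± 0.17. In both genes the lowest 6 h library was far above the highest 24 h library, and the rule for the largest changes admits only genes without overlap. The neutrophil attractants followed: Cxcl1 went from 5.79 to 10.0 CPM at 6 h to 0.585 to 1.13 CPM at 24 h (-3.32 ± 0.21), and Cxcl2 from 3.18 to 3.76 CPM to 0.108 to 0.457 CPM (-3.59 ± 0.29). Ptgs2, the inducible cyclooxygenase that makes prostaglandins, had 7.16 to 10.9 CPM at 6 h and 0.585 to 1.48 CPM at 24 h (-2.98 ± 0.20). Lif, a cytokine that acts on astrocytes, fell by 1.93 on the log2 scale.

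Intracellular members of the list fell as well. Nfkbia, which encodes the inhibitor that NF-kappaB induces to shut itself off, fell from 107 ± 12 to 53.2 ± 4.2 CPM (-1.01 ± 0.08, SE), and the NF-kappaB subunit Relb fell from 42.7 ± 2.8 to 17.1 ± 0.8 CPM (-1.32 ± 0.08). Il33, an alarm cytokine of the nucleus named after its value was seen, was 1 of the 2 members that rose, from 1.11 ± 0.37 to 2.29 ± 0.28 CPM. The number of members that fell was 20 without 24 h replicates 2 and 4, and 20 with lane as a covariate. In the CHX cultures the library on lane 6 was higher than those on lane 5 by a median of 0.21 for these genes. Its summed level was 6353 CPM, against 5293 to 5834 CPM on lane 5, and the 6 h CHX plus T3 libraries, all on lane 6, had 5284 to 5562 CPM.

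The stretches of 120 bases before the start of 3 of these chemokine genes are printed because they hold a motif of NF-kappaB and belong to genes of this list described above. They are RefSeq sequences of build GRCm38.p6, and capitals mark matches on either strand to a kappaB motif, here GGG and TTCC with 3 bases of any kind between them: Cxcl10 on the minus strand, chr5:92348974-92349093, bases -204 to -85 from the start, Cxcl1 on the plus strand, chr5:90891125-90891244, and Cxcl2 on the plus strand, chr5:90903779-90903898, both bases -120 to -1.
Cxcl10: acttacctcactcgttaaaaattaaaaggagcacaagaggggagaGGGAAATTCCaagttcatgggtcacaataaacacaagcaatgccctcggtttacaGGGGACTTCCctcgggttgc
Cxcl1: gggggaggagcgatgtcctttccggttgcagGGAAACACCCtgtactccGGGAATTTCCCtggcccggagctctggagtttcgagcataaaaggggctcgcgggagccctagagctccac
Cxcl2: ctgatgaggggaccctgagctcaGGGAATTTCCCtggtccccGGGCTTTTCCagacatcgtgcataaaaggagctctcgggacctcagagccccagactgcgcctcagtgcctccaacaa
In Cxcl1 and Cxcl2 a pair of matches on opposite strands overlap and appear as 1 run of capitals. The motif was present in the 250 bases before the start in 8 of 20 promoters of the list (40.0%) and in 4.65% of 32851 RefSeq promoters. The 20 promoters belong to 17 genes of the list, as a gene can have more than 1. A match describes the letters only and does not show binding.

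**Figure D2:**
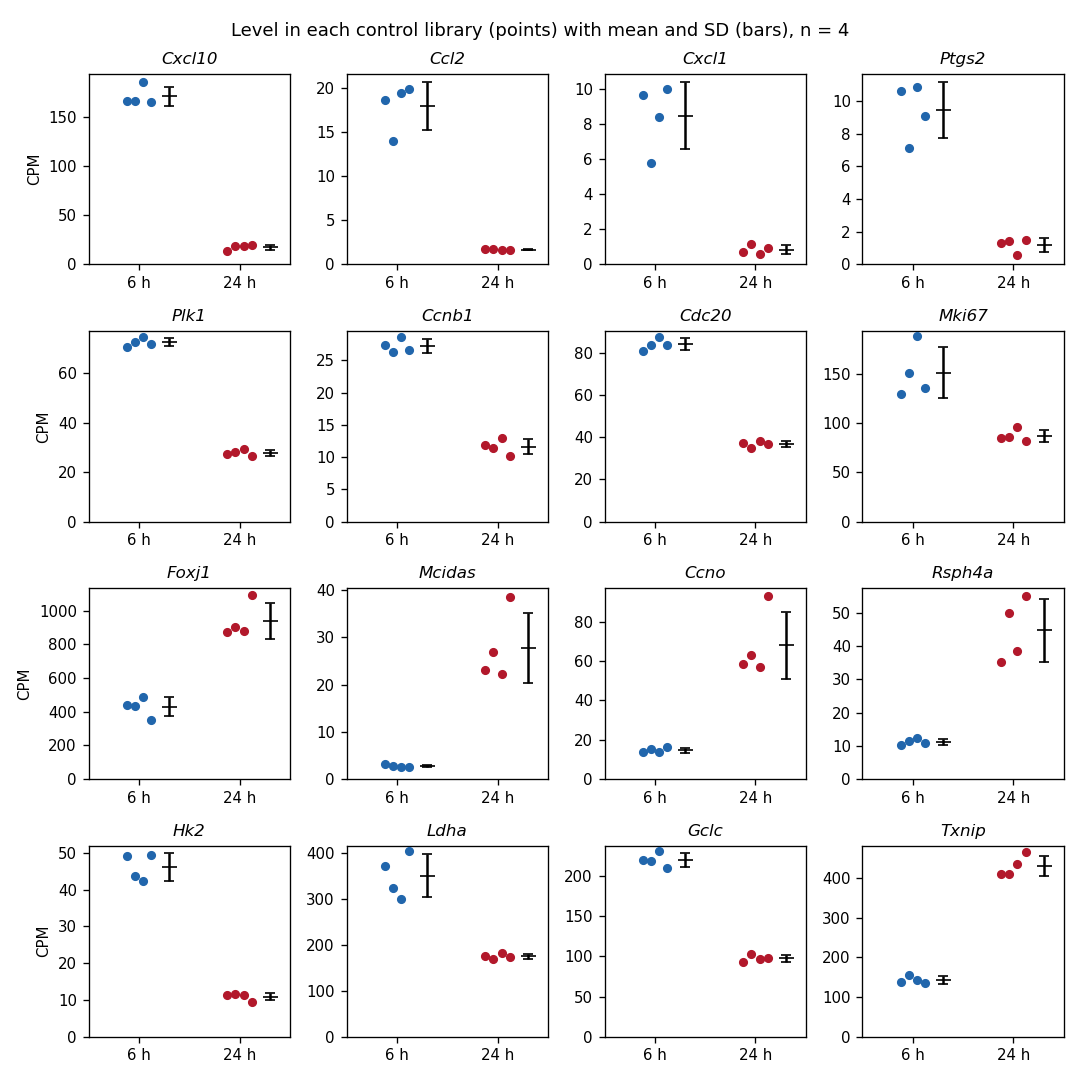
CPM in each control library at 6 h (blue points) and 24 h (red points) for 16 genes, with black bars for the mean and SD of 4 libraries and each axis starting at 0; Plk1, Ccnb1, Cdc20, Mki67, Rsph4a and Ldha were chosen for plotting after their values were seen. Cxcl10 lies between 165 and 185 CPM at 6 h and at most 19.2 CPM at 24 h. No gene shown has overlapping groups, which the rule for the largest changes required of some of them, such as Mcidas.

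Genes that change with astrocyte reactivity, the response of these cells to injury or inflammation, were lower where they were called. Of 24 tested, 15 fell and none rose (9 were not called, edgeR), with a median of -0.51. Cd44, a receptor for hyaluronan, fell from 293 ± 37 to 82.9 ± 5.4 CPM (-1.82 ± 0.09), the pattern recognition protein Ptx3 from 110 ± 17 to 30.0 ± 0.9 CPM (-1.88 ± 0.09), and the membrane protein Emp1 from 449 ± 38 to 187 ± 14 CPM (-1.27 ± 0.06). Lcn2 and Serpina3n, secreted proteins that mark reactive astrocytes and are singled out here after their values were seen, split the 24 h libraries. Lcn2 had 9.81 and 8.08 CPM in 24 h replicates 1 and 3 but 50.5 and 65.3 CPM in replicates 2 and 4, against 36.2 to 59.0 CPM at 6 h. Serpina3n had 26.9 and 23.2 CPM in replicates 1 and 3 and 74.7 and 85.7 CPM in replicates 2 and 4, against 57.1 to 82.1 CPM at 6 h. Neither was called over all 4 libraries, with adjusted p values of 0.26 and 0.14. Without replicates 2 and 4 their log2 changes were -2.44 (adjusted p = 1.5e-06) and -1.57 (adjusted p = 2.3e-05), and 18 members of the list fell.

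The genes of mitosis were lower at 24 h without exception in the list. All 30 tested fell, with a median of -1.04, and in all 30 the 24 h libraries lay below every 6 h library, which was so for 26.3% of all genes tested. The summed level of the list was 2342 to 2572 CPM at 6 h and 1170 to 1330 CPM at 24 h. In bulk RNA, fewer cells in division and less of these RNAs per cell cannot be told apart.

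Hmmr, a protein of the mitotic spindle, had 48.6, 47.0, 49.6 and 42.6 CPM at 6 h and 13.9, 16.3, 18.3 and 14.4 CPM at 24 h (-1.57 ± 0.09, SE; adjusted p = 1.6e-12). Kif23, a motor needed to divide the cell in 2, fell from 55.4 ± 2.2 to 22.2 ± 2.0 CPM, the microtubule bundler Prc1 from 126 ± 3 to 58.5 ± 3.1 CPM, and the spindle protein Nusap1 from 60.5 ± 1.6 to 30.4 ± 1.9 CPM. The 3 genes whose promoters are printed were chosen after their values were seen: the kinase Plk1 (-1.38 ± 0.10), the cyclin Ccnb1 (-1.23 ± 0.10) and Cdc20, which activates the complex that ends mitosis (-1.19 ± 0.09). Without 24 h replicates 2 and 4 all 30 fell, with a median of -0.97. With lane as a covariate 28 of 30 still fell and the median was -0.65. Within the CHX cultures the library on lane 6 was lower than those on lane 5 by a median of -0.40 for these genes. Its summed level was 1408 CPM, against 1816 to 1944 CPM on lane 5. The 6 h CHX plus T3 libraries, all on lane 6, had 1983 to 2167 CPM. The part of lane in the result was not tested.

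Genes of DNA replication had a median nearer to 0 than those of mitosis, and this difference was not tested. Of 33 tested, 16 fell and 3 rose, with a median of -0.16. Tk1, a kinase that salvages thymidine for DNA synthesis, fell from 19.2 ± 0.9 to 9.82 ± 1.11 CPM (-0.97 ± 0.11), and the replication factor Cdc45 from 20.6 ± 2.1 to 13.7 ± 0.9 CPM (-0.59 ± 0.09). The helicase subunit Mcm4 fell by 0.35 on the log2 scale. The 3 that rose, named after their values were seen, were Ccne1 and Ccne2, the E-type cyclins of entry into S phase, with 0.32 ± 0.12 and 0.42 ± 0.12, and the transcription factor E2f2. With lane as a covariate 1 gene of the list fell and 2 rose, against 16 and 3 without it.

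**Figure D3:**
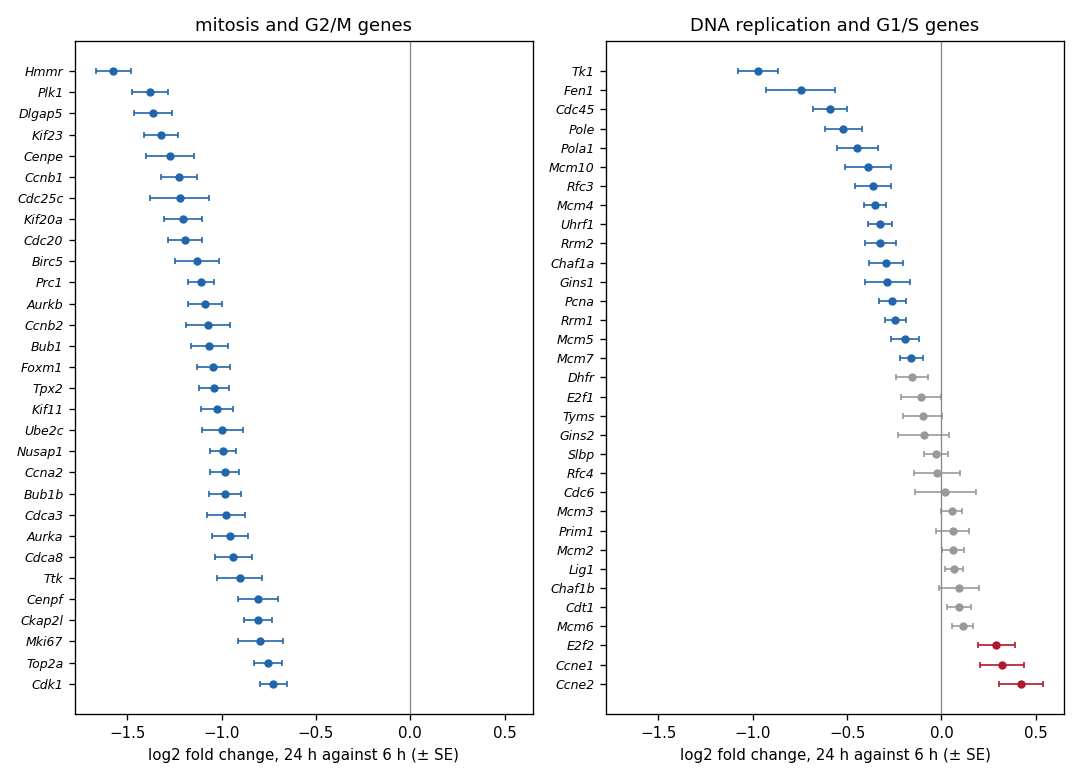
Log2 fold change of 24 h control against 6 h control with its SE for each member of the mitosis and G2/M list (left, 30 genes) and the DNA replication and G1/S list (right, 33 genes); blue is called lower, red called higher, grey not called. Every mitosis gene lies below 0, while the replication list runs from Tk1 at -0.97 to Ccne2 at 0.42.

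More regulators of cell cycle entry fell than rose. Ccnd1, the D-type cyclin that growth factors induce, had 275, 230, 259 and 284 CPM at 6 h and 92.6, 91.1, 117 and 82.9 CPM at 24 h (-1.45 ± 0.09; adjusted p = 1.7e-12). Cdkn1c, an inhibitor of cyclin-dependent kinases, rose from 25.7 ± 2.2 to 55.5 ± 5.3 CPM (1.11 ± 0.11). The inhibitors Cdkn2d and Cdkn2b fell, by 0.81 and 0.66 on the log2 scale. Of 15 genes of this kind, 7 fell, 1 rose and 7 were not called.

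The 120 bases before the start of Cdc20, Ccnb1 and Plk1 are shown with capitals wherever they match, on either strand, an element known from genes of the late cell cycle, CCAAT or TTTGAA. All 3 hold CCAAT, and only Cdc20 holds TTTGAA. Coordinates are those of GRCm38.p6, bases -120 to -1: Cdc20 on the minus strand at chr4:118437344-118437463, Ccnb1 on the minus strand at chr13:100786487-100786606, and Plk1 on the plus strand at chr7:122159315-122159434.
Cdc20: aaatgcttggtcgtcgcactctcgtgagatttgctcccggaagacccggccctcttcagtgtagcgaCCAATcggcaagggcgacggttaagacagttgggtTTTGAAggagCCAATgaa
Ccnb1: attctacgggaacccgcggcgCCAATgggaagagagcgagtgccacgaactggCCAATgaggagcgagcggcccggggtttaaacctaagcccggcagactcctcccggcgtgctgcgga
Plk1: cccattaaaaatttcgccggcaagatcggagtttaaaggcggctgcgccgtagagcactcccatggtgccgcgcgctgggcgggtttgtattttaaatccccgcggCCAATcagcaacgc
CCAAT was present in the 250 bases before the start in 22 of 24 promoters of the mitosis list (91.7%), in 20 of 33 of the replication list (60.6%) and in 33.8% of all 32851. TTTGAA was present in 9 of the 24 (37.5%), in 4 of the 33 (12.1%) and in 16.0% of all. These are counts of promoters, not of genes, and a gene can have more than 1. The 24 belong to 23 genes of the mitosis list and the 33 to 27 genes of the replication list.

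The cilia genes were the list with the highest median. Of 29 genes of ependymal cells and motile cilia tested, 28 rose and 1 was not called, with a median of 1.54, and 27 of them rose at least 2-fold. In 28 the groups did not overlap, against 24.8% of all genes tested in that direction. The summed level was 664 to 773 CPM at 6 h, and 1567, 1718, 1552 and 2032 CPM in 24 h replicates 1 to 4. Foxj1 was the largest part, with 352 to 489 CPM at 6 h and 874 to 1094 CPM at 24 h.

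Regulators of the ciliated cell program rose. Mcidas, which starts the formation of many cilia in 1 cell, had 3.15, 2.86, 2.62 and 2.50 CPM at 6 h and 23.2, 27.0, 22.3 and 38.6 CPM at 24 h (3.31 ± 0.25, SE; adjusted p = 1.4e-10). Among the 12 genes with the largest rise by the rule for named genes were also Myb, from 6.46 ± 1.05 to 61.8 ± 11.0 CPM, and the p53 relative Trp73, from 3.89 ± 0.70 to 34.7 ± 10.4 CPM, transcription factors that act in cells forming many cilia. Ccno, a cyclin-like protein of the same program, had 13.6 to 16.3 CPM at 6 h and 58.5, 63.3, 57.1 and 93.0 CPM at 24 h. Foxj1, the transcription factor that turns on motile cilia genes, had 437, 435, 489 and 352 CPM at 6 h and 874, 903, 880 and 1094 CPM at 24 h (1.13 ± 0.10). In each of these genes 24 h replicate 4 was highest. Every 24 h library was also above every 6 h library, which was so for 24.8% of all genes tested. The rule for the largest rises required this of Mcidas, Myb and Trp73.

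Parts of the cilium itself rose as well. Ccdc40 and Ccdc39, which together set the spacing of the axoneme, rose by 1.80 ± 0.12 and 1.03 ± 0.17, and the dynein motor Dnah5 by 1.48 ± 0.24. The dynein Dnah6 rose from 2.57 ± 0.72 to 16.5 ± 4.3 CPM and the kinase Nek5 from 3.41 ± 0.36 to 22.3 ± 4.6 CPM. Without 24 h replicates 2 and 4, 25 members rose and the median was 1.33. With lane as a covariate 14 rose and the median was 0.78. The 6 h CHX library on lane 6 had a summed level of 1233 CPM against 820 to 930 CPM in the 3 on lane 5, while the 6 h CHX plus T3 libraries, all on lane 6, had 781 to 852 CPM. The part of lane and of culture make-up in this rise was not tested.

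Upstream stretches of 3 cilia genes show GTTGCC, one arm of the X-box to which RFX factors of ciliated cells bind, again with matches on either strand in capitals. In GRCm38.p6 they are Mcidas on the plus strand, chr13:112993618-112993737, and Ccno on the plus strand, chr13:112987552-112987671, both bases -250 to -131, and the axonemal filament gene Tekt1 on the minus strand, chr11:72361883-72362002, bases -120 to -1.
Mcidas: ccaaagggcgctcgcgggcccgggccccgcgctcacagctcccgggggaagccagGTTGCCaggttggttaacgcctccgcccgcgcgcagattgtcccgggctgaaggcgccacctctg
Ccno: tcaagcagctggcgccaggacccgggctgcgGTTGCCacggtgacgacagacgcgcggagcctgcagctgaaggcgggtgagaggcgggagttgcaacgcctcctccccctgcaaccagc
Tekt1: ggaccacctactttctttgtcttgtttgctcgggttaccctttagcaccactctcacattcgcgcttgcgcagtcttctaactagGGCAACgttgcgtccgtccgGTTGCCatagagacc
The letters were found in 9 of 26 promoters of the list (34.6%), which belong to 23 of its genes, and in 10.4% of all. Tekt1, picked for its promoter, rose by 2.38 ± 0.21 and had 3.84 to 5.25 CPM at 6 h and 19.2 to 33.4 CPM at 24 h.

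Among other genes with the largest changes, Scara5, a receptor for ferritin, had 1.24, 0.895, 1.16 and 1.21 CPM at 6 h and 16.4, 12.5, 16.5 and 13.6 CPM at 24 h, the highest change by the rule for named genes (3.71 ± 0.16; adjusted p = 1.6e-14). Rd3, Trpc7, Chrna3, Dcdc2a and Lrrc74b, also among the 12, rose by 2.65 to 3.21. At the other end, Cyp1a1, the oxidase that the aryl hydrocarbon receptor induces, had 2.10, 3.94, 3.14 and 1.67 CPM at 6 h and 0.108 to 0.285 CPM at 24 h (-3.86 ± 0.43). Trim47, a ubiquitin ligase of the tripartite motif family, had 94.8 to 131 CPM at 6 h and 14.7 to 17.8 CPM at 24 h (-2.71 ± 0.10; adjusted p = 1.3e-15). Ppl, Stac, Mylk2 and the secreted neuropeptide precursor Vgf fell by 2.54 to 2.81 on the log2 scale. Without 24 h replicates 2 and 4, Ppl was at -3.85 and Mylk2 at -4.00. Hmga2, a chromatin protein of dividing progenitors, fell by 2.63, with an adjusted p of 0.064 once lane was a covariate.

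Genes that growth factor signalling is known to induce were lower at 24 h. Of 16 feedback inhibitors and ETS factors that MAP kinase signalling induces, 13 fell and none rose (3 were not called, edgeR), with a median of -0.57. Etv4 had 50.0 to 54.5 CPM at 6 h and 16.3 to 18.5 CPM at 24 h (-1.60 ± 0.07; adjusted p = 3.2e-14), Etv1 fell by 1.22 and Etv5 by 0.91, and the inhibitor Spry1 fell by 0.85. Of 31 immediate early genes, 22 fell and 2 rose, with a median of -0.48. Ier3 fell from 63.2 ± 5.4 to 20.6 ± 1.8 CPM, the AP-1 subunit Fosl2 from 108 ± 8 to 39.5 ± 3.1 CPM and Maff from 28.6 ± 2.8 to 9.97 ± 1.03 CPM. Klf10 rose from 32.2 ± 0.9 to 50.6 ± 1.6 CPM.

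Ligand genes fell more often than they rose. Of 28 neurotrophic and growth factor genes 13 fell and 4 rose. Hbegf, a ligand of the EGF receptor, had 299, 237, 228 and 373 CPM at 6 h and 68.2 to 95.2 CPM at 24 h (-1.82 ± 0.12). Igfbp3, which binds insulin-like growth factors, had 1288 to 1518 CPM at 6 h and 485, 348, 555 and 328 CPM at 24 h (-1.71 ± 0.11). None of the 4 genes that rose, all of this list, was called higher once 24 h replicates 2 and 4 were left out. Of 25 targets of SRF, MRTF and YAP, which read the state of the actin skeleton, 9 fell and 7 rose. These were 36.0% and 28.0%, against 28.4% and 28.2% of all genes tested. Ccn2 fell by 0.68, Ccn1 by 0.55 and Tpm4 by 0.66.

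Genes of sugar metabolism and of the response to oxidants were lower at 24 h. Of 30 glycolysis and HIF1 target genes 20 fell and 6 rose, with a median of -0.41. Hk2, the inducible hexokinase, had 49.2, 43.8, 42.2 and 49.5 CPM at 6 h and 11.2, 11.6, 11.4 and 9.42 CPM at 24 h (-2.08 ± 0.10; adjusted p = 3.2e-14). Slc2a1, the glucose transporter GLUT1, fell from 346 ± 19 to 183 ± 5 CPM, the vasoactive peptide Adm from 29.9 ± 1.9 to 12.5 ± 0.3 CPM, and Vegfa, the endothelial growth factor, from 85.6 ± 5.9 to 38.5 ± 2.7 CPM. Txnip, an inhibitor of glucose uptake, moved the other way, from 138, 157, 144 and 134 CPM to 411, 411, 436 and 465 CPM (1.59 ± 0.06; adjusted p = 1.6e-15). It was the largest rise among 23 FOXO targets and genes of growth factor withdrawal, of which 8 rose and 12 fell.

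Of 24 targets of NRF2, the regulator of antioxidant genes, 12 fell and 3 rose. Gclc, which makes the precursor of glutathione, had 211 to 231 CPM at 6 h and 92.7 to 104 CPM at 24 h (-1.18 ± 0.05; adjusted p = 1.3e-14). Hmox1, which degrades heme, fell from 230 ± 12 to 88.6 ± 5.1 CPM, the thioredoxin reductase Txnrd1 from 530 ± 17 to 273 ± 9 CPM, and the glutathione reductase Gsr from 137 ± 12 to 61.6 ± 3.4 CPM. In all of these the groups were far apart. Of 24 targets of ATF4, the factor of amino acid shortage, 16 fell and none rose (8 were not called, edgeR). Nupr1 fell by 1.87, the lipoprotein receptor Vldlr by 1.33 and the folate enzyme Mthfd2 by 1.15. Of 26 genes of the unfolded protein response and heat shock 16 fell and 2 rose, with chaperones of the endoplasmic reticulum such as Hsp90b1 (-0.53 ± 0.05), Pdia6 (-0.56 ± 0.05) and Canx (-0.46 ± 0.05) among those that fell.

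Lipid genes were mixed, and over all genes tested 28.2% rose and 28.4% fell. Of 25 cholesterol synthesis and SREBP2 target genes 11 fell and 1 rose. The demethylase Cyp51 fell from 168 ± 18 to 82.4 ± 8.1 CPM. Scd1, the stearoyl-CoA desaturase, fell by 1.11. Of 23 PPAR targets and fatty acid oxidation genes 10 rose and 6 fell, including Acadm, a dehydrogenase of medium-chain fatty acids (0.70 ± 0.05), and Cpt2, which carries fatty acids into mitochondria (0.59 ± 0.06). Fabp7, a fatty acid binding protein of radial glia and immature astrocytes, fell from 1500 ± 164 to 804 ± 47 CPM. Of 11 LXR targets and cholesterol efflux genes 6 rose and 4 fell, with the exporter Abcg1 at 0.94 ± 0.09.

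Genes of ribosome assembly fell while those of the ribosome itself were mostly not called. Of 30 ribosome biogenesis genes 20 fell and 2 rose, among them the nucleolar GTPase Gnl3, from 49.4 ± 4.9 to 24.5 ± 1.5 CPM. Of 60 ribosomal protein genes 6 fell (10.0%) and none rose (54 were not called, edgeR). Of 45 nuclear genes of the respiratory chain 9 fell (20.0%) and 1 rose. Over all genes tested 28.4% fell. Without 24 h replicates 2 and 4 the numbers that fell were 1 and 3, and with a trend of transcript length and GC content removed 14 and 20. At 6 h replicate 4 was highest, with sums of 7590 and 9128 CPM, against 5566 to 6626 CPM and 7283 to 8386 CPM in the others. Reads of such genes can be shared with near-identical copies, and 37.3 to 42.1% of the alignments were not unique and went uncounted, so these values are uncertain. Of 25 lysosome and autophagy genes 15 fell and 1 rose. Tfe3, a transcription factor of lysosomal genes, fell from 113 ± 4 to 64.5 ± 2.6 CPM.

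The clock genes did not move as 1 group. Of 20, 12 fell and 5 rose, and 10 and 3 without 24 h replicates 2 and 4. The repressor Cry1 had 66.7 to 78.8 CPM at 6 h and 28.2 to 32.8 CPM at 24 h (-1.28 ± 0.07), and Arntl, an activator gene of the clock, fell from 47.0 ± 3.7 to 25.7 ± 4.2 CPM. With 2 times of harvest the phase of a rhythm was not measured. Of 22 thyroid hormone-responsive genes 6 rose and 6 fell in these cultures without T3 (27.3% each). These shares were near the 28.2% and 28.4% over all genes tested. Slco1c1, a thyroid hormone transporter, fell by 1.07, and Ky, a muscle protein that T3 regulates, had 1.24 to 2.03 CPM at 6 h and 4.45 to 7.55 CPM at 24 h.

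Matrix and signalling genes fell more often than they rose, while over all genes tested 28.4% fell and 28.2% rose. Of 38 matrix genes 16 fell and 4 rose. The glycoprotein Tnc fell from 876 ± 72 to 453 ± 86 CPM and the laminin Lamc1 from 847 ± 42 to 461 ± 61 CPM, while the protease Mmp2 rose from 43.6 ± 4.4 to 83.4 ± 3.7 CPM. Of 20 Notch pathway genes 11 fell and 3 rose: the ligand Jag1 fell by 1.12, the feedback gene Nrarp by 0.58, the DNA-binding partner Rbpj by 0.49 and the target Hes1 by 0.52. Of 23 BMP and TGF-beta genes 11 fell and 4 rose, with the activin inhibitor Fst at -1.32 ± 0.10 and Ltbp1, which anchors latent TGF-beta, at -1.19 ± 0.08. Of 22 p53 targets 10 fell and 2 rose. Of 21 glucocorticoid-responsive genes 8 fell and 6 rose (38.1% and 28.6%), with the metallothionein Mt2 at 0.98 ± 0.10. Of 28 interferon response genes 9 rose and 3 fell. Without 24 h replicates 2 and 4, 7 interferon genes rose and 5 fell, 1 Notch gene rose and 7 fell, and 2 BMP and TGF-beta genes rose and 9 fell. With lane as a covariate 7 matrix genes rose and 6 fell, 5 p53 targets rose and 5 fell, and 2 interferon genes rose and 3 fell. In that fit 0 Notch genes rose and 5 fell, and 2 BMP and TGF-beta genes rose and 6 fell. Of the glucocorticoid-responsive genes 4 rose and 3 fell. Over all genes tested that fit called 13.4% higher and 14.1% lower. Ifih1, a sensor of viral RNA, rose from 9.49 ± 0.57 to 18.3 ± 0.7 CPM, and the transcription factor Irf1 fell from 47.3 ± 2.0 to 26.0 ± 1.1 CPM.

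The label of the cells was checked against their markers. Gfap, the intermediate filament of astrocytes, had 4064 to 4646 CPM at 6 h and 4030 to 5434 CPM at 24 h and was not called (0.12 ± 0.10; adjusted p = 0.33). The water channel Aqp4 fell from 874 ± 25 to 651 ± 47 CPM and the glutamate transporter Slc1a3 from 2078 ± 80 to 1698 ± 54 CPM. The other glutamate transporter among the defining markers, Slc1a2, was not called (-0.22 ± 0.13). Of 26 astrocyte markers 9 rose, 7 fell and 10 were not called, with a median of 0.07. The shares that rose and fell were 34.6% and 26.9%, against 28.2% and 28.4% of all genes tested. The transcription factors Nfia and Id4 rose, by 0.61 ± 0.07 and 0.60 ± 0.06.

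Markers of other cells differed between the 24 h libraries. The summed level of the oligodendrocyte lineage list was 918 to 1041 CPM at 6 h, 896 and 842 CPM in 24 h replicates 1 and 3, and 1132 and 1213 CPM in replicates 2 and 4. Olig1 was the largest part, with 519 to 600 CPM at 6 h and 384 to 447 CPM at 24 h. Of 15 tested, 10 rose and 2 fell with all 4 libraries, and 3 rose and 2 fell without replicates 2 and 4. Bcas1, a marker of young oligodendrocytes, had 1.91 to 2.88 CPM at 6 h and 4.72, 29.0, 3.99 and 32.7 CPM at 24 h. It was among the 12 largest rises (2.78 ± 0.60) and had a log2 change of 0.76 (adjusted p = 0.28) without those 2 libraries. Pdgfra, the receptor that marks oligodendrocyte precursors, had 55.1 to 68.1 CPM at 6 h and 100, 151, 85.9 and 165 CPM at 24 h (1.05 ± 0.22). It stayed called without replicates 2 and 4 (0.62, adjusted p = 0.038) but was -0.02 with lane as a covariate. The lineage factors Olig1 and Olig2, which astrocytes in culture can also express, fell by 0.44 and 0.33.

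Microglia, the immune cells of the brain, showed the same split. The summed level of their markers was 168 to 207 CPM at 6 h, 200 and 186 CPM in 24 h replicates 1 and 3, and 261 and 302 CPM in replicates 2 and 4. Of 18 markers, 6 rose (33.3%) and none fell with all libraries (12 were not called, edgeR), and 2 rose without the pair. Over all genes tested 28.2% rose and 28.4% fell. Of the 3872 genes from 1 to 10 CPM, where many of these markers lie, 1577 rose and 527 fell. The defining markers Aif1 and Csf1r were not called, with 0.213 to 1.06 CPM and 6.01 to 14.1 CPM over the 8 libraries. The chemokine receptor Cx3cr1 rose from 2.40 ± 0.55 to 5.52 ± 2.37 CPM with an adjusted p of 0.097 without the pair. Of 14 neuron markers 8 rose and 1 fell, and 3 rose and 1 fell without the pair. With lane as a covariate none of them rose and 3 fell (11 were not called, edgeR), and the median turned from 0.38 to -0.23. The sum ran from 528 to 571 CPM at 6 h and from 569 to 637 CPM at 24 h. Most of it was Map2, with 314 to 326 CPM and 383 to 401 CPM. Of 14 vascular and meningeal markers 4 rose and 3 fell (28.6% and 21.4%), with sums of 2378 to 2568 CPM and 2127 to 2602 CPM. Most of these sums was Acta2, with 1737 to 1984 CPM at 6 h and 1485 to 2054 CPM at 24 h. Without the pair 1 rose and 2 fell, and with lane as a covariate 5 rose and none fell (9 were not called, edgeR), with a median of 0.50. The lane fit rests on 1 CHX library, which had a neuron sum of 541 CPM, against 473 to 489 CPM in the others. Its vascular and meningeal sum was 1513 CPM, against 1866.5 to 2094 CPM. The 6 h CHX plus T3 libraries, all on lane 6, had 455 to 501 CPM and 1866 to 2048 CPM. Kdr, a receptor of endothelial cells, rose from 14.5 to 18.1 CPM at 6 h to 20.0 to 32.1 CPM at 24 h (0.68, and 0.91 without the pair). The endothelial markers Flt1 and Cdh5 overlapped between the times. Flt1 had 1.37 to 3.03 CPM at 6 h and 1.03 to 2.11 CPM at 24 h, and Cdh5 0.909 to 3.03 CPM and 1.49 to 3.73 CPM. The endothelial markers Pecam1 and Cldn5 were too low to test, and Cldn5 had no count in 2 of the 8 libraries. The part of these cells in the other results was not tested, and the mitosis, chemokine and cilia counts without replicates 2 and 4 stand beside those results.

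**Figure D4:**
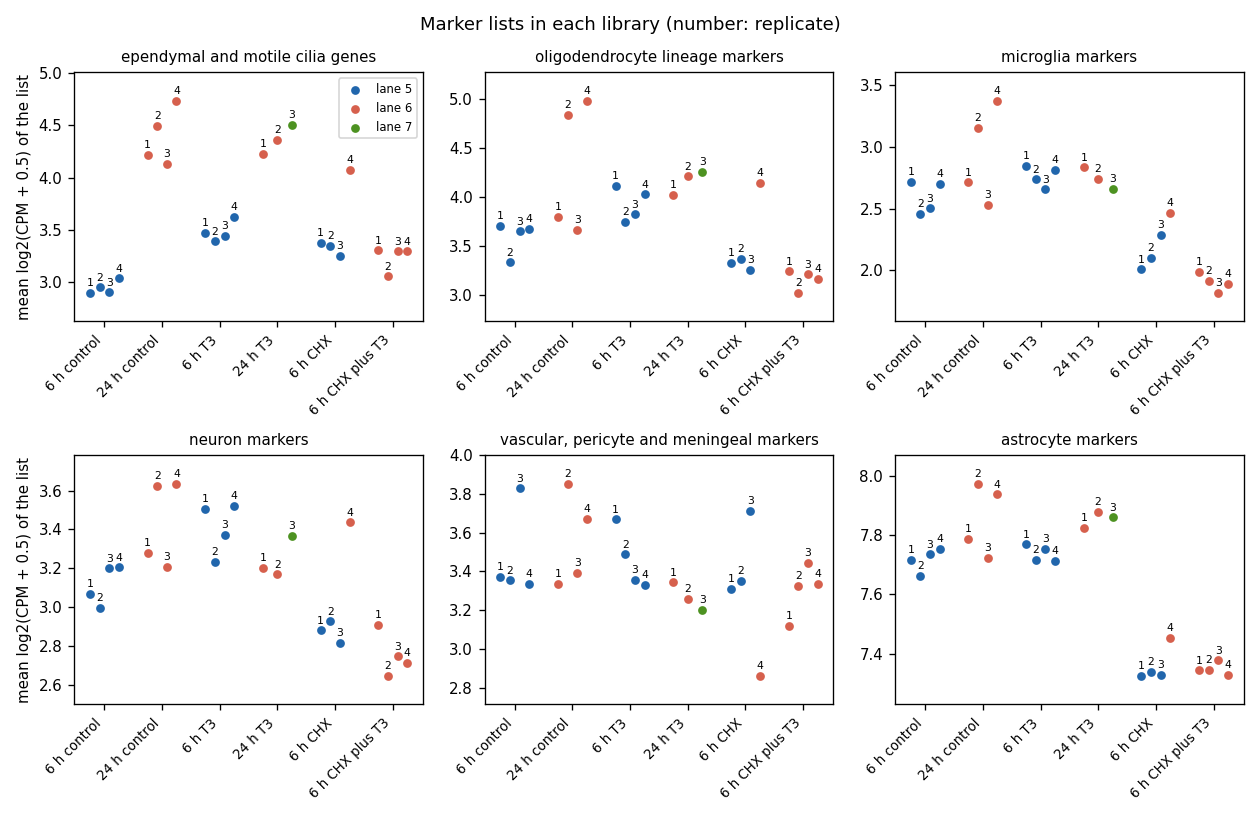
Mean log2(CPM + 0.5) of 6 marker lists in each of the 23 libraries by group, with the replicate number above each point and colour for the sequencing lane. In 24 h control, replicates 2 and 4 lie above replicates 1 and 3 for all 6 lists. The 6 h CHX replicate 4, on lane 6, lies above the other CHX replicates for the cilia, oligodendrocyte, microglia, neuron and astrocyte lists. For the vascular, pericyte and meningeal list it lies below them.

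The same interval was measured in cultures given 10 nM T3, with 4 libraries at 6 h and 3 at 24 h that are not part of the control comparison. There 9259 genes were called (57.6%), 29.3% higher and 28.2% lower. The 24 h T3 replicate 1 stood apart from replicates 2 and 3, with a chi-square per degree of freedom of 30.6 and 38.5 against 2.73 between those 2. Without it 8851 of 16262 genes were called (54.4%, with 26.8% higher and 27.6% lower), in a fit that also leaves out 6 h CHX replicate 4 and was tabulated after the data were seen. Of the genes that rose in the controls 3535 also rose with T3, 77.9% of the control calls and 74.9% of the T3 calls, and 8 fell. Of those that fell, 3635 fell with T3 too, 79.6% and 80.1% of the respective calls, and 18 rose. In the T3 cultures all 30 mitosis genes fell (median -1.04), 20 of 25 chemokine genes fell (-1.43) and 24 of 29 cilia genes rose (0.91). Without 24 h T3 replicate 1 the medians were -1.10, -1.41 and 0.97. Both intervals run from lane 5 to later lanes, so they do not separate time from lane.

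The difference between both time changes was called for 135 genes, 0.839% of those tested (87 with a higher change with T3, 0.541%, and 48 with a lower one, 0.298%). It was 32 without 24 h control replicates 2 and 4. None of the 30 mitosis genes was among them, and of the chemokine and cilia lists there was 1 gene each, Vcam1 and Ccdc40. Without 24 h T3 replicate 1 it was 153 genes, with 4 of the cilia list, Ccdc113, Ccdc40, Rsph4a and Tekt1. Aldh1a7 and Aldh1a1, retinaldehyde dehydrogenases with near-identical sequence, were not called in the controls (-0.33 ± 0.18 and -0.15 ± 0.16) and changed by 2.62 and 2.55 with T3. The proteases Adamts17 and Adamts16 rose in the controls by 2.09 and 1.01 and with T3 by 3.99 and 2.97, and Crabp1, a retinoic acid binding protein, was at -0.50 and 1.40. Of the 45 respiratory chain genes 26 rose with T3 and none fell, against 1 and 9 in the controls, while the difference was called for 1 of them, Atp5b. The rise with T3 rests largely on 24 h T3 replicate 1, in which the list summed to 10742 CPM, against 7996 and 7659 CPM in replicates 2 and 3 and 6868 to 8482 CPM in the 6 h T3 libraries. Without it 6 genes rose with T3 and the median was 0.11, and the adjusted p of the difference for Atp5b was 0.081.

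**Figure D5:**
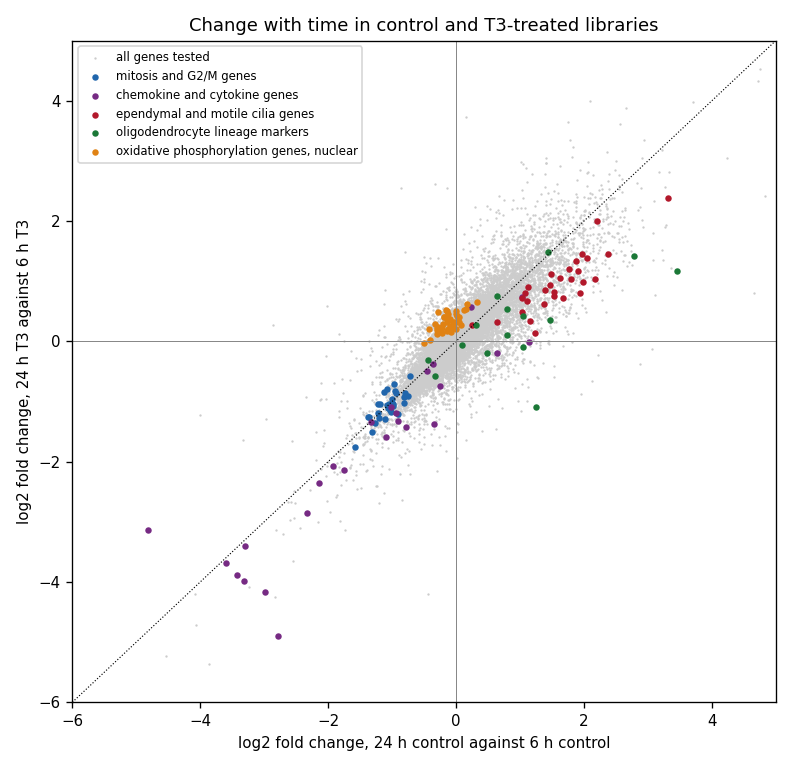
Log2 fold change of 24 h against 6 h for each gene tested, in control libraries (horizontal) and T3-treated libraries (vertical), with the members of 5 lists in colour, a dotted line where both are equal, and 1 gene outside the plotted range. Mitosis genes (blue) lie near the line with medians of -1.04 on both axes, and respiratory chain genes (orange) lie mostly above it, with medians of -0.13 and 0.31, of which the second is 0.11 without 24 h T3 replicate 1.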

How the data were processed

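Total RNA was sequenced in 23 libraries as single reads of 50 nt with a kit that keeps no strand, per the labels' protocols. The submitters' processing notes list HTSeq, TopHat, Bowtie, FastQC, bcl2fastq and edgeR, with build GRCm38 and no versions; no source used here gives the annotation or the counting mode. The authors deposited raw read counts per Ensembl gene, 1 table for each library. Of its lines, 38293 are genes; the other 5 are read totals outside genes and entered neither sizes nor tests. In the 8 libraries 4.17 to 5.45% of reads had no feature and 1.40 to 1.52% were ambiguous. Reads that aligned to several places were uncounted, which lowers genes with near-identical copies. Without strand, reads of overlapping genes on opposite strands, such as Cxcl10 and Art3, Cdc20 and Elovl1, Tk1 and Afmid or Txnip and Gm15441, cannot be told apart.

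Symbols came from GENCODE M21 (36429 of 38293 identifiers). Genes were kept by filterByExpr (minimum count 10) and sizes scaled by TMM. A model with a mean for each group was fitted in edgeR 4.0.16 (R 4.3.3) to the 23 libraries, with 17 residual degrees of freedom and a biological coefficient of variation of 8.57%. SEs were obtained as the absolute log2 change over the root of F. The fit was run on simulated data with 100 genes changed 1.5-fold and 100 changed 2-fold. It recovered 69% and 84% of them, with 9 false calls. Far fewer genes changed there than were called here, so that setting was not covered. No libraries were duplicates in a chi-square test of counts. Promoters are RefSeq windows of GRCm38.p6, of which the 250 bases before the start were searched on both strands.

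The comparison, the 37 gene lists and the tests were chosen with earlier results of these data known. Named by rule were: per direction, the 12 called protein-coding genes with the largest change whose mean CPM reached 1 and whose groups did not overlap; per list, the 4 members lowest in adjusted p, or all if fewer; the first 4 markers of each cell type; and the 5 largest called differences between T3 and control. Alternatives were RLE factors, DESeq2 1.42.0, no filter, only the 8 libraries with and without a replicate block, lane, a length and GC trend, and libraries left out. Some named genes are not reported here.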

Additional observations from a re-analysis of the deposited data

Results flagged for a closer look

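In groups of 4 libraries, a library was taken as standing apart when its gap to the nearest other, divided by the range of the group, was above Dixon's critical value for a named gene. This held in 23 of 358 groups, and chance alone gives about 1 in 20.

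Several of these were genes of ciliated cells or of the largest changes. Foxj1 had 1094 CPM in 24 h control replicate 4, against 874 to 903 CPM in the others. In 6 h control replicate 4, Myb had 8.03 CPM against 5.82 to 6.05 CPM and Dnah6 3.63 CPM against 2.10 to 2.27 CPM. Chrna3, a nicotinic receptor subunit, had 11.3 CPM in 24 h control replicate 4 against 7.67 to 8.00 CPM. Cxcl10 stood apart at both times, with 185 CPM in 6 h replicate 3 and 13.1 CPM in 24 h replicate 1. Among markers of other cells, 24 h replicate 4 was high for the endothelial Flt1 (2.11 CPM), and the neuronal Map2 was low in 6 h replicate 1 (314 CPM) and high in 24 h replicate 1 (401.5 CPM).

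At 24 h, replicate 1 was low for Maff (8.43 CPM) and high for Lif (3.14 CPM), and replicate 2 was high for Gabarapl1 (198.7 CPM). Replicate 3 was low for Tfe3 (60.6 CPM), Neu1 (38.2 CPM) and Mthfd2 (8.72 CPM) and high for mt-Nd6 (900.6 CPM) and Fst (5.96 CPM), and replicate 4 was low for Bhlhe40 (57.9 CPM). At 6 h, replicate 1 was low for Rbpj (60.1 CPM), replicate 2 was high for Ky (2.03 CPM) and Adamts16 (0.835 CPM) and low for Ltbp1 (63.4 CPM), and replicate 3 was low for Adm (27.1 CPM).

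For 13 named genes the change from 6 h to 24 h differed between T3 and control cultures by edgeR's test of the difference. The log2 difference, T3 minus control, was 2.95 for Aldh1a7, 2.70 for Aldh1a1, 1.96 for Adamts16, 1.90 for Adamts17 and 1.90 for Crabp1. Mmp2 rose in both, by 0.94 in controls and 1.41 with T3, a difference of 0.47. Atp5b, a subunit of ATP synthase, was at -0.50 and -0.02 (difference 0.48), the fatty acid elongase Elovl5 at -0.69 and -0.38 (0.31) and the integrin Itga7 at -0.83 and -0.47 (0.35). Ptx3 fell further with T3 (difference -0.71, adjusted p = 0.011), as did Vegfa (-0.59, adjusted p = 0.048). Without 24 h T3 replicate 1 the differences of Itga7, Atp5b and Vegfa were not called, with adjusted p values of 0.12, 0.081 and 0.052. Ccdc40 and Klf10 rose less with T3, with differences of -0.77 and -0.42.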

How the results depend on the processing

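Of the 175 named genes that were called, 133 kept their direction and call under each of the 17 alternatives, and 161 under each but the lane covariate, with which 39 lost the call and 2 reversed. With lane as a covariate, which rests on 6 h CHX replicate 4 alone, 4414 genes were called, 2148 higher and 2266 lower, against 9105, 4538 and 4567; the cause was not tested. Leaving out 1 library at a time gave 8396 to 8771 calls, with 4174 to 4418 higher and 4212 to 4353 lower, and RLE factors, DESeq2, no filter and the removal of a length and GC trend gave 9209, 9139, 8947 and 9916. Deviations of same-numbered replicates from their group means had r of -0.008, -0.028, -0.030 and 0.091, and pairs with unlike numbers ran from -0.075 to 0.100. This does not tell whether same-numbered replicates shared a preparation. A replicate block in the 8 control libraries gave 8965 calls, against 9009 without it. The difference between the T3 and control changes was called for 135 genes, for 356 with DESeq2, 521 with lane, 381 with the trend removed, 32 without 24 h control replicates 2 and 4, and 69 to 247 when 1 library was left out (69 without 24 h replicate 2, 74 without 24 h replicate 4, 80 and 75 without 6 h replicates 1 and 2, 247 without 24 h replicate 3); the cause was not tested. With lane, the log2 changes of Gfap (-0.33), Pdgfra (-0.025), Csf1r (-0.16), Tubb3 (-0.30), Snap25 (-0.63) and Aldh1a1 (0.20) reversed. Without 24 h replicates 2 and 4 those of Gfap (-0.046), Cspg4 (-0.15), Csf1r (-0.20), Snap25 (-0.20) and Aldh1a1 (0.15) did. Only Pdgfra and Tubb3 of these were called. With 1 library left out, Aif1 ran from -0.37 to 0.21 and Snap25 from -0.020 to 0.33. Genes below 1 CPM rest on few counts, and counts limit their precision most.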

Other observations

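A group of transporters was lower at 24 h. These genes were picked after their values were seen, and no test is given for them. Slc38a2, which brings neutral amino acids into the cell, had 1091, 1068, 1126 and 1139 CPM at 6 h and 259, 256, 274 and 231 CPM at 24 h, a log2 change of -2.12 ± 0.07 (SE) that was -1.95 with lane as a covariate. Slc5a3, a carrier of the osmolyte inositol, went from 396 to 482 CPM to 88.8 to 110.0 CPM (-2.04 ± 0.11), and the taurine carrier Slc6a6 from 205 to 285 CPM to 74.2 to 89.5 CPM (-1.59 ± 0.11). Slc7a1, a carrier of cationic amino acids, was at -1.25 ± 0.10. In each of these 4 genes all 24 h libraries lay below all 6 h libraries. The close relative Slc38a1 was at 0.28 ± 0.09 and Slc1a5 at -0.02 ± 0.12. Nfat5, the transcription factor of the response to high salt, was at -0.16 ± 0.16 with overlapping groups. With T3, Slc38a2 was at -2.12 and Slc5a3 at -2.25.

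Values of other regulators of cells with many cilia, again picked after they were seen and with no test, follow. Gmnc, which acts with Mcidas, had 14.7 to 16.2 CPM at 6 h and 59.3, 56.5, 61.6 and 56.4 CPM at 24 h (1.90 ± 0.09), and its value was 1.96 without 24 h replicates 2 and 4 and 1.71 in the fit with lane. The centriole amplification gene Deup1 was at 2.39 ± 0.28, with 34.6, 45.7, 29.9 and 61.2 CPM at 24 h, and at 0.97 with lane as a covariate. The cell cycle repressor E2f7 was at 1.35 ± 0.12 and the cilia gene regulator Rfx3 at 0.76 ± 0.12. Gmnn, which holds back DNA replication and binds the same partners, was at -0.62 ± 0.14 and at -0.01 in the fit with lane. The transcription factor E2f5 was at -0.43 ± 0.06, with all 24 h libraries below all 6 h libraries, and Plk4, the kinase that starts centriole copying, was at 0.13 ± 0.12 with overlapping groups.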
